A study of Mus musculus with 16 samples.

Results

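The genes of the mitochondrial respiratory chain were measured in peritoneal macrophages of mice with and without a urokinase (uPA) transgene. Members were taken by name, as every probe whose gene symbol begins with Ndufa, Ndufb, Ndufc, Ndufs, Ndufv, Uqcr, Atp5 or Cox4 to Cox8, or is Sdha, Sdhb, Sdhc or Sdhd. The rule found 77 genes among 15161 with a symbol on the array, measured by 91 of its 24607 probes, and none was named Sdha. Of these probes 76 belong to subunits of complexes I to V as found in most tissues and 8 to assembly factors of complex I that share the prefix Ndufa. The other 7 belong to isoforms of complex IV subunits best known from muscle, lung or testis. Ndufa4 carries a complex I name but is a cytochrome c oxidase subunit and was placed with complex IV.

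The tested animals were 6 SR-uPA+/0 transgenic mice, which per the design carry a transgene for overexpression in macrophages of uPA, the plasminogen-activating protease urokinase. They were compared with 6 nontransgenic mice, and the labels do not name the promoter of the transgene. All 12 animals were female, lacked Apoe (Apoe-/-), ate a Western diet for 10 weeks beginning at 5 weeks of age and were 15 weeks old. Macrophages elicited by intraperitoneal thioglycollate were collected after 5 days and freed of nonadherent cells after 2 h on culture dishes, and 1 RNA sample per animal was hybridised to an Illumina Mouse Ref-8 v1.1 BeadChip. RNA of the 6 animals of each genotype was also pooled, and each pool was hybridised 2 times. These 4 pool arrays are technical repeats, shown beside the animals and left out of every test.

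The respiratory chain sits in the inner mitochondrial membrane. Complexes I (NADH dehydrogenase) and II (succinate dehydrogenase) pass electrons to ubiquinone, complex III (cytochrome bc1) passes them to cytochrome c, and complex IV (cytochrome c oxidase) passes them to oxygen, while complex V (ATP synthase) uses the proton gradient built by complexes I, III and IV to make ATP. Mitochondrial DNA encodes some subunits of every complex but II, and nuclear genes, among them all the members here, encode the rest. In macrophages the balance between this chain and glycolysis is known to shift with activation.

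RNA integrity numbers lay between 8.9 and 9.7, and 9543 to 9551 probes per animal array exceeded the noise limit. Of 12 listed macrophage markers 10 were on the array, 9 were tested and none passed. Their summed intensity was 136404 to 152310 units in transgenic and 132872 to 148510 in nontransgenic animals. Lyz2 and Lgals3 made up most of it, so the sum says little of the dimmer markers. The transgene's own gene, Plau, did not separate the labels (log2 difference -0.10, SE 0.42, limma adjusted p = 0.967), so up and down are meant here by labelled genotype. Where its probe lies relative to the transgene is unknown here, and a probe outside it would check nothing. An earlier analysis of these data had found the arrays of transgenic animals 1 and 6 apart from the rest in principal components. The values of the named members were recomputed without them, and the main shifts are given beside the results. The labels give no chip or position for any array, so the part of the 2 chips used cannot be told apart from genotype.

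Ndufa8 was lower in transgenic macrophages and was the only member past the threshold. It encodes an accessory subunit of complex I with twin CX9C motifs that lies on the intermembrane-space side of the membrane arm. Its probe on chromosome 2 read 1278, 868, 1121, 1112, 1272 and 1279 intensity units in the 6 transgenic animals. It read 1906, 1646, 1616, 1768, 2097 and 1613 units in the 6 nontransgenic animals. Every transgenic value lay below every nontransgenic value, and transgenic animal 2 was the lowest of all. The means were 1155 ± 161 units in transgenic and 1774 ± 195 in nontransgenic animals (SD, n = 6 each). The pools gave 921 and 1065 units for the transgenic genotype and 1655 and 1815 for the nontransgenic genotype. On the normalized log2 scale Ndufa8 fell by 0.58 in transgenic macrophages (SE 0.12, 95% interval -0.83 to -0.34, limma adjusted p = 0.0239), which is 1.5-fold. The exact permutation p of this single probe was 0.00216, the smallest that the 924 assignments of 12 animals allow. The 113 of 10534 tested probes (1.07%) whose genotypes do not overlap all reach that p. Ndufa8 had been singled out with earlier results of these data known, so neither p is independent support for it. Because the arrays measured RNA of whole cell preparations, fewer cells of a type and less RNA per cell cannot be told apart. Single animals decided the call: the limma adjusted p was 0.0557 without transgenic animal 3, 0.0658 without transgenic 4, 0.0612 without nontransgenic 1, 0.0557 without nontransgenic 2 and 0.0655 without nontransgenic 5, and the difference ran from -0.61 to -0.51 over all 12 omissions. Without transgenic animals 1 and 6 together it was -0.66 (limma adjusted p = 0.0312).

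**Figure D1:**
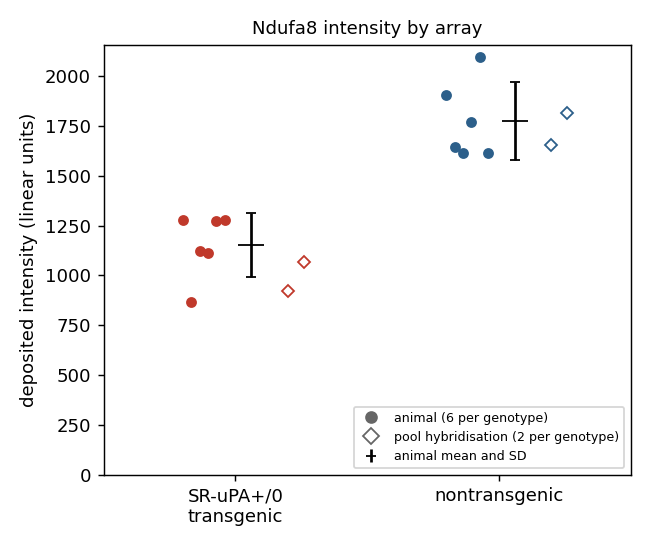
Deposited Ndufa8 intensity (vertical axis, linear units from 0) in transgenic animals on the left and nontransgenic animals on the right. Filled circles are animals, open diamonds are repeat hybridisations of the genotype's RNA pool, and bars give the animals' mean and SD. Transgenic animals lie between 868 and 1279 units, and all nontransgenic animals lie at or above 1613.

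Some neutrophil and fibroblast markers differed between the genotypes on the same arrays. Neutrophil markers summed to 12797 to 46279 units in transgenic and 5098 to 18734 in nontransgenic animals. Of 10 tested markers 4, S100a8, S100a9, Retnlg and Pglyrp1, passed and were higher, against 0.104% of all tested probes. All 10 had positive differences, from 0.13 (Camp) to 2.42 (S100a9) on the log2 scale. Of the neutrophil list, Cxcr2, Mmp8 and Ngp were not tested because they were too dim. Fibroblast and mesothelial markers summed to 1431 to 6423 units in transgenic and 7527 to 14912 in nontransgenic animals, so that these ranges did not overlap. The sums weigh bright markers most. The brightest, Dcn, had means of 2005 units in transgenic and 5343 in nontransgenic animals and did not pass (limma adjusted p = 0.0666). Of the 12 tested markers of this list 4, Col1a1, Col3a1, Col6a1 and Serping1, passed and were lower, against 0.627% of all tested probes. Of the mesothelial markers in that list, Msln had 0.10, Upk3b -0.07, Krt18 -0.03, Krt7 -0.01, Krt8 -0.26 and Wt1 -0.66 on the log2 scale, none past the threshold. Col1a2, Lum and Thy1 were too dim to test. Of 5 listed B cell markers 2 were tested and neither passed. Cd79b had 0.76 (limma adjusted p = 0.205) and Ms4a1 had 0.13 (limma adjusted p = 0.815). Their sums, 318 to 635 units in transgenic and 157 to 393 in nontransgenic animals, overlapped. The T cell markers Cd3d, Cd3e and Cd3g were below the noise limit. When the mean levels of both lists, neutrophil and fibroblast, were added to the model, a fit chosen after the values were seen, the Ndufa8 difference was -0.89 (SE 0.28, limma adjusted p = 0.525). In that fit 1 probe of the whole array passed. These lists themselves differed between the genotypes, and the SE of Ndufa8 rose from 0.12 without the terms to 0.28 with them. The fit therefore cannot set genotype apart from the markers. The part of these cells in the Ndufa8 difference was not tested further.

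The call of 1 in 74 tested members (1.35%) has to be read against the whole array, where 77 of 10534 tested probes passed (0.731%). In the lower direction the background was 0.627%. Ndufa8 was also the only member without overlap between the genotypes, against 1.07% of all tested probes. At an unadjusted limma p under 0.05 there were 4 members, or 5.41%, against 8.53% of all tested probes. The median log2 difference was -0.02 over the members and 0.01 over all tested probes. Below 0 lay 40 of the 74 members (54.1%) and 47.8% of all tested probes. The 95% interval of the difference stayed within a 1.5-fold change in either direction for 67 of 74 members, a share of 90.5% against 82.7% of all tested probes. The other 7 probes, Ndufa8 among them, had intervals that reached further, and the farthest ends were -0.83 and 0.62. These bounds are on the log2 scale after a constant of 96.9 was added. For dim probes they allow a larger change in intensity than 1.5-fold.

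**Figure D2:**
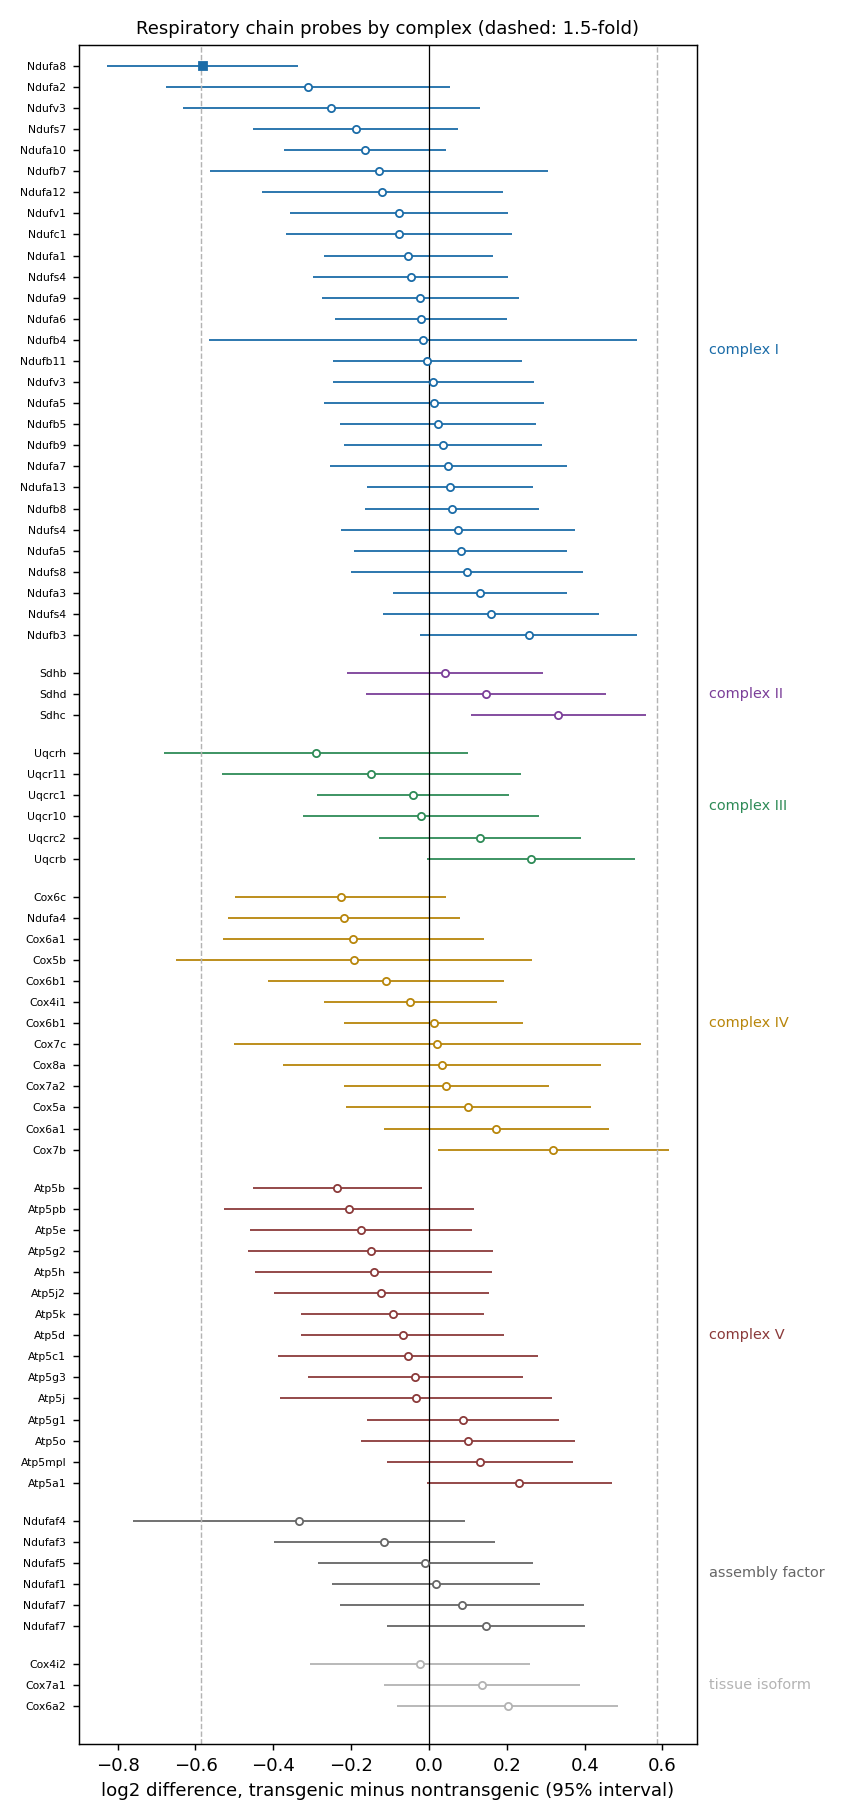
Log2 difference of each tested member probe, transgenic minus nontransgenic (horizontal axis), grouped by complex from top to bottom. Points are limma estimates over 6 animals per genotype with 95% intervals, the filled square is the probe past the threshold (Ndufa8, -0.58), and dashed lines mark a 1.5-fold change. The other 73 probes lie between -0.33 and 0.33.

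Complex I was represented by 33 subunit probes for 28 genes, of which 28 probes for 24 genes were bright enough to test. Apart from Ndufa8, none of the other 27 tested probes passed: 13 had positive and 14 negative differences, from -0.31 to 0.26. Their median was -0.00408 on the log2 scale, and the lowest limma adjusted p among them was 0.623. For 25 of these 27 probes the 95% interval stayed within a 1.5-fold change on that scale.

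The subunits of complex I divide into a catalytic core, present from bacteria to mammals, and accessory subunits around it. Among the nuclear-encoded core subunits Ndufs7, which binds an iron-sulphur cluster near the ubiquinone site, had a log2 difference of -0.19 (SE 0.12). Ndufv1, which binds FMN and accepts electrons from NADH, had -0.08 (SE 0.13), and the iron-sulphur subunit Ndufs8 had 0.10 (SE 0.14). None of the 3 passed, and the lowest limma adjusted p was 0.738. Ndufb7, the other tested complex I subunit with twin CX9C motifs, averaged 470 ± 163 units in transgenic and 502 ± 96.6 units in nontransgenic animals (SD, n = 6 each). Its difference was -0.13 (SE 0.20, limma adjusted p = 0.903), and the genotypes overlapped. Chchd4, which oxidises proteins with twin CX9C motifs in the intermembrane space, differed by 0.00498 on the log2 scale (SE 0.14, limma adjusted p = 0.994). The other 23 tested accessory probes had 12 positive and 11 negative differences with a median of 0.01.

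Of these accessory subunits Ndufb3, of the membrane arm, had the smallest limma p after Ndufa8. It read 1993 to 3659 units in transgenic animals (median 2949) and 2235 to 2811 in nontransgenic animals (median 2288), so the nontransgenic range lay inside the transgenic one. The log2 difference was 0.26 (SE 0.13, limma adjusted p = 0.623). Ndufa2, an accessory subunit of the matrix arm, read 5208 to 10300 units in transgenic animals (median 9318) and 7937 to 11815 in nontransgenic animals (median 10263). Its transgenic values reached further down, with transgenic animal 1 the lowest. The difference was -0.31 (SE 0.17, limma adjusted p = 0.663), and -0.18 without that animal. Some genes had several tested probes of opposite sign, and none of these passed. Ndufs4, needed for the stability of the NADH-oxidising end of the enzyme, gave -0.05, 0.16 and 0.07 on its probes 1, 2 and 3. Without transgenic animals 1 and 6 these probes gave 0.04, 0.04 and -0.01 in the same order. The flavoprotein subunit Ndufv3 gave 0.01 and -0.25. The second value was -0.07 without transgenic animal 1, which read 4465 units on that probe and was the lowest. Among the remaining subunits, Ndufab1, Ndufb2, Ndufc2 and Ndufs1 were below the noise limit on all 12 animal arrays, as was 1 of the Ndufc1 probes, and no difference can be given for them.

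Ndufa8 was set against the other complex I genes animal by animal. Each value was expressed as its deviation from the nontransgenic mean on the log2 scale. Ndufa8 deviated by -0.95 to -0.43 in the 6 transgenic animals and by -0.13 to 0.23 in the 6 nontransgenic animals. Single values of the 23 other tested genes ran from -1.13 to 0.99 in transgenic and from -0.52 to 0.50 in nontransgenic animals. Transgenic lows below those of Ndufa8 were seen for Ndufv3 (-1.13, animal 1) and Ndufb7 (-1.13, animal 4), and 7 of the 23 genes reached -0.43 or lower in at least 1 transgenic animal. None of the 23 had all transgenic values below all nontransgenic values. Only Ndufa10 had all 6 transgenic values below its nontransgenic mean, and 4 of them lay below every nontransgenic value. Its log2 difference was -0.16 (limma adjusted p = 0.698, exact permutation p = 0.0238) in the animals and -0.34 in the pools. The mean of these 23 genes, which varies less than a single gene by averaging, deviated by -0.11 to 0.11 in transgenic and by -0.06 to 0.06 in nontransgenic animals. The transgenic range of that mean was thus wider and enclosed the nontransgenic one, with transgenic 1 lowest and transgenic 6 highest. The genotype difference of Ndufa8 relative to that mean was -0.55 in the animals and -0.84 in the pools. It lay between -0.61 and -0.48 under all 21 alternatives computed for it. Ndufa8 had been singled out with earlier results known, so this contrast is a description and carries no p.

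**Figure D3:**
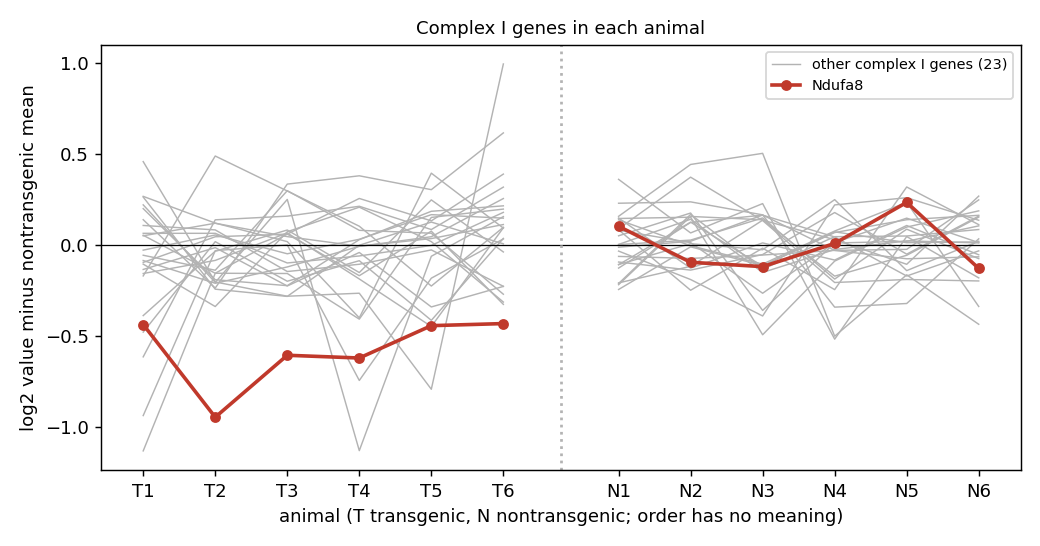
Log2 value minus the nontransgenic mean (vertical axis) for Ndufa8 (thick line) and the 23 other tested complex I genes (thin lines) in transgenic animals on the left (T1 to T6) and nontransgenic animals on the right (N1 to N6). Lines join the values of 1 gene and the order of animals has no meaning. Ndufa8 lies at -0.43 or below in all 6 transgenic animals, while single values of the other genes run from -1.13 to 0.99 and none of those genes has all transgenic below all nontransgenic values.

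The promoter of Ndufa8 is shown with those of the tested complex I genes that hold the same motif. The nuclear genes of the chain are known targets of NRF1, GABP and YY1, and the words searched on both strands were GCGC, A, any base and GCGC in a row for NRF1, CCGGAAG for ETS factors such as GABPA and AANATGGCG for YY1. The windows ran from 250 bases before to 50 after the annotated start in RefSeq's GRCm38.p6, and capitals mark each match to the NRF1 word. All 4 genes lie on the minus strand and the sequences are given 5′ to 3′ along it. The windows are chr2:36049289-36049588 for Ndufa8, chr6:24527641-24527940 for Ndufa5, chr15:82354242-82354541 for Ndufa6 and chr16:37654319-37654618 for Ndufb4.
Ndufa8: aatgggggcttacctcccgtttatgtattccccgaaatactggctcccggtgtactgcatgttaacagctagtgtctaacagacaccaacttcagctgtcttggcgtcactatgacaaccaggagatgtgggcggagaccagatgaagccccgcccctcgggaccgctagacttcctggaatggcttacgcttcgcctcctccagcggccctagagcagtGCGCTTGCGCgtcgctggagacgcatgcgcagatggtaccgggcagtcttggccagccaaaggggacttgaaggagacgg
Ndufa5: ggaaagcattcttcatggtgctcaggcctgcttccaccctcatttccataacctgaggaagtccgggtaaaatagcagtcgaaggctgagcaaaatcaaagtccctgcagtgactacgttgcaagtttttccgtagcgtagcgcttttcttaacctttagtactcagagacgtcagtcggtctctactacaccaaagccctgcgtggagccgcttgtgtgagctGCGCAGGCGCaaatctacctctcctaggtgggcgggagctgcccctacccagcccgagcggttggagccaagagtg
Ndufa6: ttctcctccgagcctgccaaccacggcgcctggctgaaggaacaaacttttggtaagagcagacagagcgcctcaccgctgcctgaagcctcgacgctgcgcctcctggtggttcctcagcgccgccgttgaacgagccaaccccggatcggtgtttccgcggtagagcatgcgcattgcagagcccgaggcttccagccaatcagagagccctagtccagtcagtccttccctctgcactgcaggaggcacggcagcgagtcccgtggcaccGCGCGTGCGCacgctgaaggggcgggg
Ndufb4: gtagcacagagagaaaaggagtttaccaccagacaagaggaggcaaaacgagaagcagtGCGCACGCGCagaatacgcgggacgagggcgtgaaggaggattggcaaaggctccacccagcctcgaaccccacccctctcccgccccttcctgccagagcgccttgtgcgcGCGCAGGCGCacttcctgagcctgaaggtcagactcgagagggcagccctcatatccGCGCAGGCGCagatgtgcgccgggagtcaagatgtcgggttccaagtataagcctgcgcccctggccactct
The match in Ndufa8 begins 30 bases before the start, and Ndufb4 holds 3 matches. The log2 differences of the other genes shown were 0.08 for Ndufa5, -0.02 for Ndufa6 and -0.02 for Ndufb4. A match is a run of letters and not a measured binding site, and a part of NRF1 in the Ndufa8 difference was not tested.

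RefSeq windows were found for 64 of the 77 member genes, 69 windows in all. The NRF1 word occurred in 16 of these 69 windows (23.2%) and in 4.6% of all 32851 windows. The ETS word occurred in 15 (21.7%) and in 8.86% of all windows, and the YY1 word in 9 (13.0%) and in 2.38%. Atp5h, Atp5k, Cox6a1 and Sdhd held both the NRF1 and the ETS word, and Atp5j held both the ETS and the YY1 word. The 15 member genes with the NRF1 word were all tested. Ndufa8 was the only one of them past the threshold, and their median log2 difference was -0.04. None of the 14 tested genes with the ETS word or the 9 with the YY1 word passed, with medians of -0.06 and -0.05.

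The nearest tested genes around Ndufa8 on chromosome 2 did not pass either. Its promoter window shares 234 bases with that of Morn5, which starts in the opposite direction and whose window is chr2:36049223-36049522. No probe was named Morn5 or Gm39798, a long noncoding RNA gene adjacent to Ndufa8, so neither was analysed here. Of the 5 nearest tested genes on each side, the one with the smallest p was Dab2ip, a signalling scaffold, with 5 annotated genes between it and Ndufa8. It differed by -0.52 on the log2 scale (SE 0.18, limma adjusted p = 0.347). The other 9 lay between -0.29 (Rab14) and 0.41 (Traf1). The farthest were Psmd5 at lower coordinates, with 34 annotated genes between, and Dennd1a at higher coordinates, with 61 between.

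Complex II is the smallest complex and the only one without a mitochondrially encoded subunit, and its 3 measured genes all had positive differences, none past the threshold. Sdhc, a membrane anchor that helps form the ubiquinone site, read 5348, 5543, 4711, 5720, 4405 and 5864 units in transgenic animals. It read 3787, 3927, 4274, 3848, 4597 and 4408 units in nontransgenic animals. All transgenic animals but transgenic 5 lay above all nontransgenic animals. The difference came to 0.33 on the log2 scale (SE 0.11), with limma adjusted p = 0.278, an exact permutation p of 0.00649 and a 95% interval of 0.11 to 0.56. The pools gave 4216 and 4707 units for transgenic and 4935 and 3689 for nontransgenic, a log2 difference of 0.06. Sdhd, the other membrane anchor, read 691 to 1363 units in transgenic animals (median 1040) and 781 to 992 in nontransgenic animals (median 934). Its difference was 0.15 (SE 0.15, limma adjusted p = 0.841), and it was -0.03 without transgenic animals 1 and 6. The iron-sulphur subunit Sdhb had 0.04 (SE 0.12, limma adjusted p = 0.953). A second probe of Sdhb and a second of Sdhc were below the noise limit on every array.

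Complex III had 8 subunit genes on the array and 6 tested, with 2 positive and 4 negative differences and a median of -0.03. None passed. Uqcrb, which lies beside the ubiquinone site, read 2446 to 3561 units in transgenic animals (median 2809) and 1923 to 2849 in nontransgenic animals (median 2358). The groups overlapped, and the log2 difference was 0.26 (SE 0.13, limma adjusted p = 0.599). Uqcrh, the hinge protein bound to cytochrome c1, read 5191 to 11959 units in transgenic animals (median 9468) and 7715 to 12679 in nontransgenic animals (median 10541). The spread was wider in transgenic animals, and the difference was -0.29 (SE 0.18, limma adjusted p = 0.722). The core protein gene Uqcrc2 had 0.13 (SE 0.12, limma adjusted p = 0.827). Uqcrfs1, the Rieske iron-sulphur protein, exceeded the noise limit on 1 transgenic array only and Uqcrq on none, so neither was tested.

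Complex IV had 13 probes for 11 subunit genes, all tested and none past the threshold, with 7 positive and 6 negative differences and a median of 0.01. Cox7b, a small membrane subunit, was dim. It read 77.8 to 163 units in transgenic animals (median 113) and 30.6 to 133 in nontransgenic animals (median 72.6), against a noise limit of 56.8 to 56.9 units. Its log2 difference was 0.32 (SE 0.14, limma adjusted p = 0.541), on a scale where a constant of 96.9 added before the logarithm makes differences of dim probes smaller. With values below the noise limit raised to it in place of the constant, the difference was 0.57 (limma adjusted p = 0.477). Without transgenic animals 1 and 6 it was 0.21. The pools did not separate, with 139 and 75.8 units for transgenic and 95.3 and 153 for nontransgenic. Cox6c, another accessory subunit, read 6643 to 10488 units in transgenic animals (median 9180) and 8985 to 12873 in nontransgenic animals (median 10350). Its difference was -0.23 (SE 0.13, limma adjusted p = 0.671), and -0.14 without transgenic animal 1. Ndufa4 read 9083 to 16091 units in transgenic animals (median 12562) and 11671 to 16145 in nontransgenic animals (median 14473). It had -0.22 (SE 0.14, limma adjusted p = 0.727), and -0.38 (limma adjusted p = 0.295) without transgenic animals 1 and 6. Cox6a1 gave -0.19 on its first probe and 0.17 on its second. Without transgenic animals 1 and 6 the first was -0.30, and without animal 6 the second was 0.10. Cox6b1 gave 0.01 and -0.11, and the second was -0.22 without transgenic animal 1.

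Of the 5 complexes, complex V had the highest share of negative differences, 11 of 15 tested genes (73.3%), but none passed. All 15 intervals stayed within a 1.5-fold change on the log2 scale used. For dim probes such as that of Atp5pb, this bound allows a larger change in intensity. The median was -0.07, and the lowest limma adjusted p was 0.535. Atp5b, the catalytic beta subunit, read 23321 to 31067 units in transgenic animals (median 27775) and 29546 to 34340 in nontransgenic animals (median 32590). The ranges overlapped because transgenic 4 and transgenic 6 reached above the lowest nontransgenic animal. The difference came to -0.24 on the log2 scale (SE 0.10), with limma adjusted p = 0.535, an exact permutation p of 0.0108 and a 95% interval of -0.45 to -0.02. The pools gave 30571 and 31543 units for transgenic and 27273 and 30785 for nontransgenic, which is not the direction of the animals. Atp5a1, the alpha subunit that alternates with beta in the catalytic head, read 637 to 932 units in transgenic animals (median 830) and 617 to 768 in nontransgenic animals (median 634). Its difference had the opposite sign to that of Atp5b, at 0.23 (SE 0.11, limma adjusted p = 0.600). Atp5pb, of the peripheral stalk, was dim, with 48.7 to 96.2 units in transgenic and 47.9 to 183 in nontransgenic animals, and had -0.21 (SE 0.15, limma adjusted p = 0.781), or -0.37 with values below the noise limit raised to it. Atp5md and 1 of the Atp5j probes were below the noise limit on every array.

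**Figure D4:**
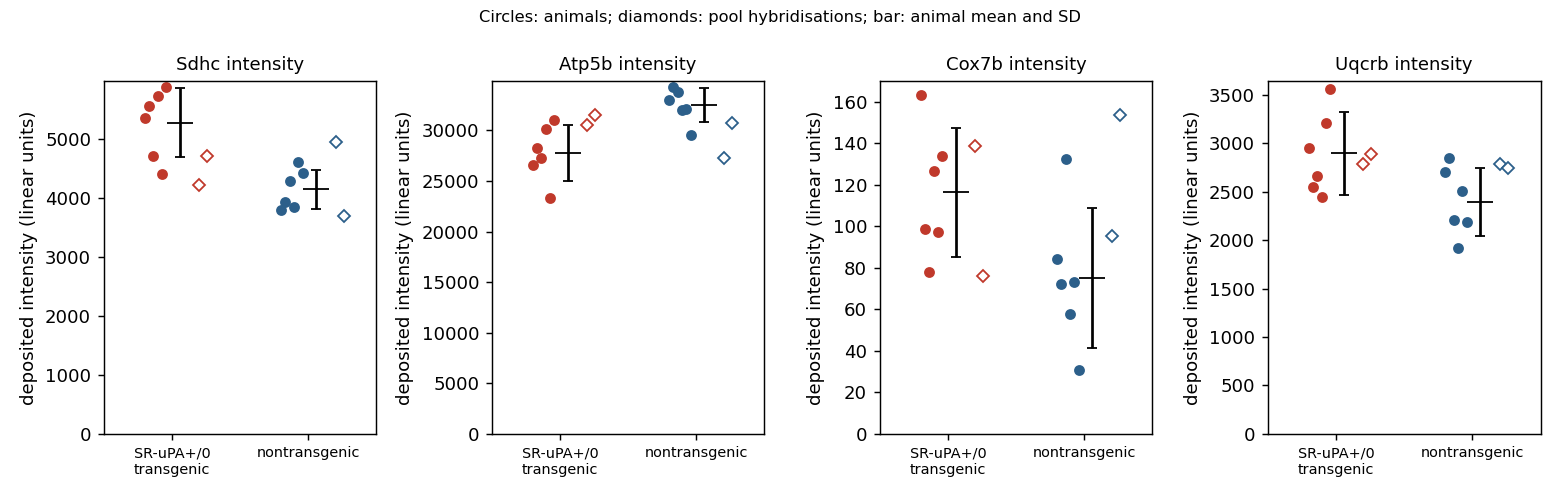
Deposited intensity (vertical axis, linear units from 0) of Sdhc, Atp5b, Cox7b and Uqcrb, each with transgenic animals on the left and nontransgenic animals on the right. Circles are animals, diamonds are pool hybridisations, and bars give the animals' mean and SD. The genotypes overlap in every panel. The difference of the pools is smaller than that of the animals for Sdhc (0.06 against 0.33) and Uqcrb (0.04 against 0.26), and has the opposite sign for Atp5b (0.07 against -0.24) and Cox7b (-0.12 against 0.32).

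Averaged over the tested genes of a complex, the ranges of the genotypes overlapped in all 5 complexes. As deviations from the nontransgenic mean on the log2 scale, complex I ran from -0.13 to 0.09 in transgenic and from -0.06 to 0.05 in nontransgenic animals. Complex II ran from 0.05 to 0.35 in transgenic and from -0.12 to 0.12 in nontransgenic animals. Complex III ran from -0.21 to 0.12 in transgenic and from -0.12 to 0.10 in nontransgenic animals. Of these, complex II had the largest difference between genotype means. Complex IV ran from -0.20 to 0.18 in transgenic and from -0.06 to 0.14 in nontransgenic animals, and complex V from -0.14 to 0.07 in transgenic and from -0.04 to 0.05 in nontransgenic animals. The range was wider in transgenic animals in all 5 complexes. Transgenic 6 was the highest transgenic animal for complexes I, IV and V, and transgenic 1 was the lowest for complex III and the highest for complex II. Without these 2 animals the median differences were -0.02 for complex I, 0.08 for II, 0.03 for III, -0.02 for IV and -0.11 for V. The pool readings of complex II were 0.17 and 0.37 for transgenic and 0.20 and 0.18 for nontransgenic. The SD between animals had a median of 0.22 on the log2 scale in transgenic and 0.18 in nontransgenic animals over the members. Over all tested probes it was 0.25 in transgenic and 0.21 in nontransgenic animals.

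**Figure D5:**
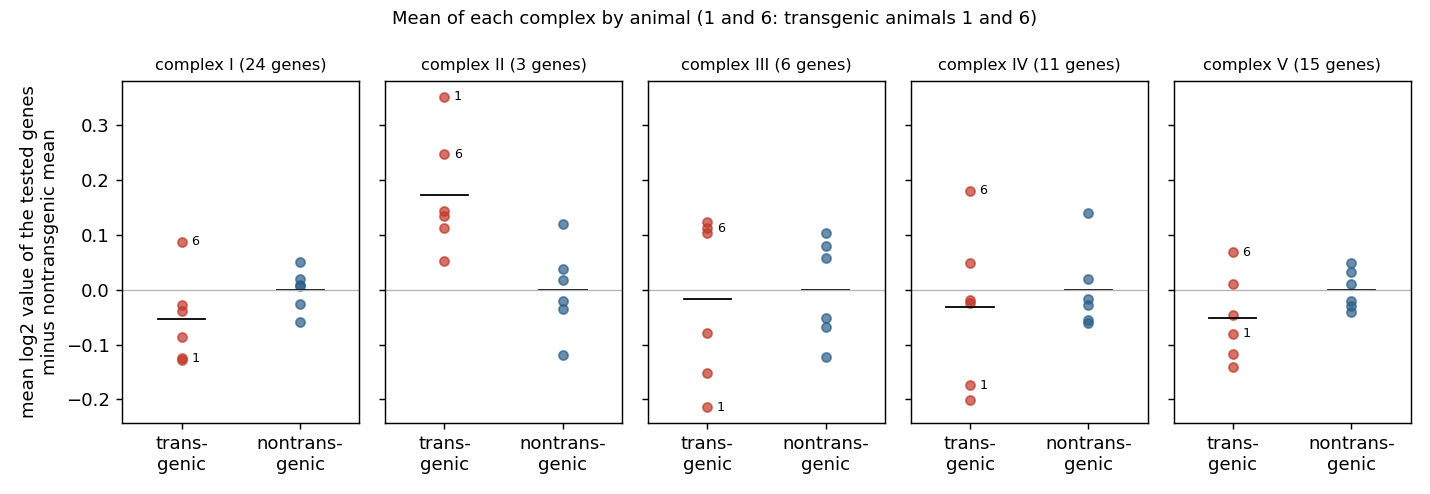
Mean log2 value of the tested genes of each complex minus the nontransgenic mean (vertical axis), with transgenic animals on the left and nontransgenic animals on the right of each panel. Points are animals, lines are genotype means, and the numbers 1 and 6 mark transgenic animals 1 and 6. The genotype means differ by -0.05 for complex I, 0.17 for II, -0.02 for III, -0.03 for IV and -0.05 for V.

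The remaining members were assembly factors of complex I and subunit isoforms best known from other tissues. The complex I assembly factors Ndufaf1, Ndufaf3, Ndufaf4, Ndufaf5 and Ndufaf7 had 6 tested probes and none passed, with differences from -0.33 (Ndufaf4) to 0.15 (Ndufaf7) and a lowest limma adjusted p of 0.699. Another probe of Ndufaf5 and another of Ndufaf7 were below the noise limit. Of the tissue isoforms, the lung form Cox4i2 and the muscle forms Cox6a2 and Cox7a1 were tested and had -0.02, 0.20 and 0.14, none past the threshold. Cox6a2 and Cox7a1 exceeded the noise limit on all 12 animal arrays. Both Cox6b2 probes, Cox7b2 and Cox8b were below the noise limit on all 12 animal arrays.

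Lists of genes with related mitochondrial functions gave no call. Of 41 listed assembly factors and electron carriers, which include the members Ndufaf1, Ndufaf3 and Ndufaf4, 32 were on the array and 28 tested, with 10 positive and 18 negative differences and a median of -0.04. The pair with the smallest p was Uqcc1, a dim probe for an assembly factor of complex III, at -0.26 (limma adjusted p = 0.635) and Ndufaf4, given above. Of 14 listed regulators of these genes 9 were tested, with a median of 0.01. The nuclear receptor gene Esrra had 0.48 (limma adjusted p = 0.569) and Gabpb1, which encodes a GABP subunit, had 0.21 (limma adjusted p = 0.671). Nrf1 itself had 0.08 (limma adjusted p = 0.894), and Ppargc1a, Yy1, Tfb2m and Hif1a were too dim to test. All 10 tricarboxylic acid cycle genes on the array were tested and none passed, with a median of -0.03. Suclg1, a subunit of succinyl-CoA ligase, had -0.20 (limma adjusted p = 0.781) and the oxoglutarate dehydrogenase gene Ogdh had 0.20 (limma adjusted p = 0.806). Of 7 tested carrier and outer membrane genes none passed, with a median of 0.04. The import receptor gene Tomm22 had 0.22 (limma adjusted p = 0.633) and the ADP/ATP carrier gene Slc25a5 had -0.28 (limma adjusted p = 0.646). None of the 9 listed subunits encoded by mitochondrial DNA matched a probe symbol, so they were not analysed here.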

How the data were processed

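The values were the authors' deposited intensities, linear values for which the submitters' processing notes name BeadStudio without a version. They run below 0 and share nearly the same quartiles, so a background had been subtracted and the arrays normalized. How they did this is not stated in the sources. Another deposited table holds 32 columns whose names match no sample, and they were not used. Probe symbols came from the platform annotation: 19852 probes had 1 symbol and 4755 had none, and 4 control probes were left out.

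The normexp step of limma (saddle, offset 16) in effect added 96.9 to each intensity, and quantile normalization of the 12 animal arrays and log2 followed. Pools were mapped to the same distribution. A probe was tested if it exceeded a noise limit of 1.64 times the root mean square of each array's negative values on at least 3 of 12 arrays, which kept 10534 probes. The detection p-values were therefore not used. Genotypes were compared with limma 3.58.1 in R 4.3.3 (two-sided, Benjamini-Hochberg over all tested probes, threshold 0.05), with exact two-sided permutation tests of single probes beside it. Promoter windows were read with Python 3.11.15. The animals are separate mice with 1 array each, so the number of arrays limits the precision.

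The members and gene lists were chosen with earlier results of these data known. The genes named are Ndufa8, members past the threshold or without overlap, the 3 tested subunit genes of smallest p in each complex, genes with probes of opposite sign, members below the noise limit and, from each list, the 2 members of smallest p. The core subunits, Ndufb7, Chchd4, Nrf1 and the genes around Ndufa8 were added for their role. Ndufa10 was added for its values, after they were seen. On simulated arrays of transgenic against nontransgenic animals with 10534 probes, limma called 34 of 67 probes with a 1.5-fold change (50.7%). At 2-fold it called 60 of 67 (89.6%), and at 4-fold 66 of 66, with 5 unchanged probes among 165 calls. The simulated noise was normal and independent between probes, with no array or cell-type effect, so rates in the real data may differ. The simulation gave 165 calls against 77 in the real data, so its adjusted threshold was easier to pass. Its changes were added on the log2 scale, so those of dim probes were not made smaller by the constant. Alternatives covered the background step, offset, normalization, filter, variance model, array weights, test and each animal left out.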

Additional observations from a re-analysis of the deposited data

Results flagged for a closer look

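In 58 groups of 6 animals, formed by the named members and the complex means in each genotype, the most extreme animal's gap to its nearest neighbour was set against the group's range. In 7 groups the ratio exceeded the critical value of 0.625, and chance alone gives about 1 such group in 20. On the normalized log2 scale Ndufa8 was 9.915 in transgenic animal 2, below the other 5, with a ratio of 0.632. Without that animal the Ndufa8 difference was -0.51 (limma adjusted p = 0.0421). Cox6c was 12.72 in transgenic animal 1 (ratio 0.657), below the others, Ndufv3 probe 1 was 7.244 in transgenic animal 1 (0.658), below the others, and Cox6b1 probe 2 was 14.09 in transgenic animal 1 (0.707), above them. Ndufb3 was 11.51 in nontransgenic animal 6 (ratio 0.846), Atp5a1 was 9.754 in nontransgenic animal 2 (0.845) and Ndufs4 probe 3 was 12.44 in nontransgenic animal 1 (0.648), each above the others. The causes were not tested.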

How the results depend on the processing

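The single call among the members was the result that moved. No member passed without a filter on dim probes or by the exact Mann-Whitney test (0 each), and 0 to 1 passed when each animal was left out in turn. With 6 animals per genotype the exact permutation and Mann-Whitney tests give no p below 0.00216, and 113 of 10534 tested probes lacked overlap. After adjustment over all tested probes that was too few for any probe to pass, so neither exact test could call Ndufa8. For Ndufa8 the difference was -0.58 without a filter (limma adjusted p = 0.0922, over more probes), -0.58 by the exact permutation test (adjusted p = 0.202), -0.89 with marker means as terms (limma adjusted p = 0.525), a fit added after seeing the data, and -0.61 to -0.51 with each animal left out. Under the other alternatives its limma adjusted p was 0.0168 to 0.0398. Over all alternatives the median difference ran from -0.033 to 0.018 for complex I, 0.042 to 0.24 for II, -0.074 to 0.060 for III, -0.076 to 0.021 for IV and -0.11 to -0.036 for V. These moves were smaller than the SD of the complex mean between transgenic animals, but for II, IV and V larger than that between nontransgenic animals (0.080, 0.074 and 0.036). An alternative likewise added later counted Ndufa4 in complex I. Signs of uncalled members turned without transgenic animals 1 and 6 for Sdhd (-0.030) and Ndufs4 probes 1 (0.036) and 3 (-0.012), and with marker means as terms for Ndufa2 (0.15), Sdhd (-0.16), Sdhb (-0.26), Ndufs4 probes 1 (0.37) and 3 (-0.36) and Ndufv3 probe 2 (0.33). With each animal left out they turned for Ndufs4 probe 1 (-0.11 to 0.021), Ndufv3 probe 1 (-0.034 to 0.10), Sdhb (-0.0091 to 0.093) and Cox6b1 probe 1 (-0.035 to 0.071). The values that turned with marker means as terms had SE of 0.27 to 0.37, in a fit whose terms themselves differed between the genotypes. The causes were not tested. No paired analysis was possible because the animals carry no shared numbers in the labels and the numbered pool arrays are repeat hybridisations of 1 pool per genotype. Differences of probes near the noise limit are understated on the log2 scale used, and 17 of 91 probes could not be tested at their signal.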
